A study of Mus musculus with 10 samples.

Results

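The vessel wall controls clotting through a small set of genes that start, restrain and undo it, and 9 of them were followed here in primary adipocyte cultures of control mice and of mice with Fam20c targeted in adipocytes. The 9 genes were chosen by symbol from the deposited count table of 56748 genes, and all 9 were found in it. They are Vwf, F8 and F3, whose products promote clotting, Thbd, Procr and Tfpi, whose products restrain it, and Plat, Plau and Serpine2, which encode proteases of clot lysis and a protease inhibitor. RNA-seq covered 5 control libraries of the genotype Fam20c-flox and 5 KO libraries of the genotype Fam20c-flox/Adipoq-Cre. Both groups came from the inguinal stromal vascular fraction (SVF) of male mice 6 to 8 weeks old, and both received adipogenic differentiation, for 6 to 8 days in culture. The Cre recombinase is driven by the adiponectin promoter, so deletion was directed at adipocytes, and the endothelial, stromal and immune cells that an SVF culture still holds would keep Fam20c. The labels do not say whether each library came from a separate mouse, so P values measure the spread between libraries.

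In a vessel, tissue factor (F3) starts the cascade when it meets plasma factor VII, and tissue factor pathway inhibitor (TFPI) blocks that complex. Thrombomodulin (THBD) and the endothelial protein C receptor (PROCR) on the endothelial surface turn thrombin into an activator of protein C, which shuts the cascade down. Von Willebrand factor (VWF), stored in endothelial Weibel-Palade bodies, tethers platelets and carries factor VIII (F8) in plasma. Tissue-type (PLAT) and urokinase-type (PLAU) plasminogen activators make plasmin, which dissolves fibrin, and protease nexin-1 (SERPINE2) inhibits thrombin, plasmin and urokinase. In adipose tissue these genes are used by several cell types, since stromal cells also express tissue factor, urokinase and protease nexin-1.

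Total counts ranged from 18949106 to 26237825 in control and from 19883101 to 23291792 in KO libraries. Fam20c was reduced and not absent in KO. It averaged 10.2 ± 1.29 CPM (counts per 1000000 of the normalized library total) with the control genotype and 7.30 ± 0.449 with the KO genotype (SD, n = 5), and each KO library lay under the lowest control library (log2 fold change -0.49, SE 0.093, adjusted P = 0.0137). Control library 4 and KO library 1 stood apart from the other 8 on the leading principal component, which held 23.5% of the variance, and results that rest on them are also given without them. Adipocyte markers dominated the libraries, with Fabp4 at 20805 and Adipoq at 1759 CPM in control cultures. Markers of endothelial cells, macrophages and stromal cells were also detected. In 20 endothelial markers, 18 were lower in KO at an adjusted P under 0.05, 0 were higher and the median log2 fold change was -1.22. Their summed level ran from 231.8 to 276.7 CPM in control and from 108.4 to 150.6 CPM in KO libraries. In bulk RNA, fewer cells of a type and less RNA per cell cannot be told apart.

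Of the 9 genes, 1 passed the limit of an adjusted P under 0.05, and it was Plat, which was lower in KO. The share of all 14270 genes tested that passed in that direction was 1.86%. No member passed in the other direction, where the share of all genes was 0.308%. At an unadjusted P under 0.05, 3 members were lower (Plat, Plau and Procr) and 1 was higher (F8), against 7.46% and 4.43% of all genes. The median log2 fold change of the 9 members was -0.085, and that of all genes tested was -0.00085. The members differed less between the groups than the endothelial markers of the same libraries did. All 9 members had a 95% interval that lay above -1.22, the endothelial median, and 17 of the 20 endothelial markers had a lower log2 fold change than each member. That position is not particular to the members, since the median of all genes tested also lay far above -1.22. Set against the marker mean of each library, 88.6% of all 14270 genes had each KO library above each control library.

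**Figure D1:**
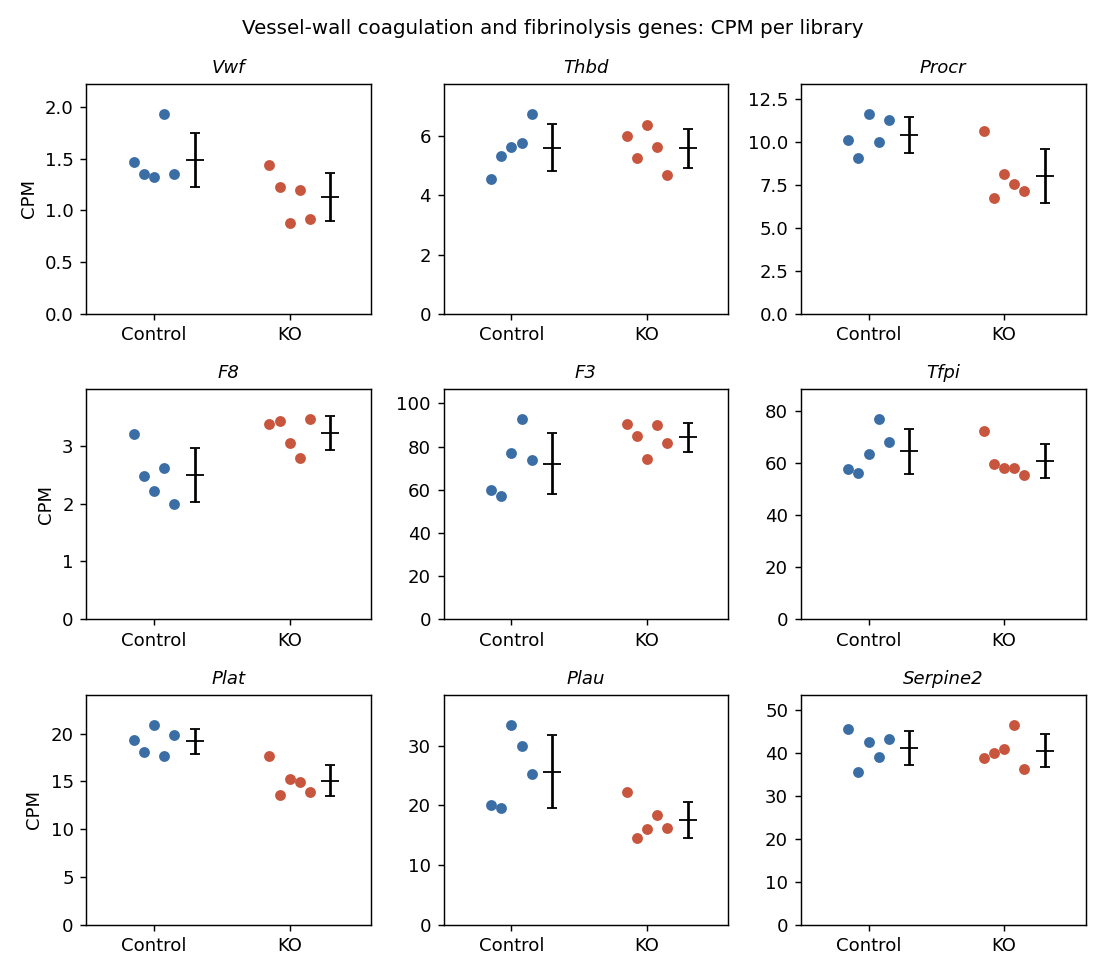
CPM of each of the 9 genes in the 5 control (blue) and 5 KO (red) libraries. Each point is 1 library, the black mark and bar to the right are the mean and SD, and each vertical axis starts at 0. The Plat libraries of KO lie below those of control, by a narrow margin between control library 4 and KO library 1, and the groups overlap for the other 8 genes.

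The genes differed widely in level. Per kilobase of exon, tissue factor was the most abundant member in control cultures, at 28.6 ± 5.68 CPM per kilobase (SD, n = 5). Tfpi followed at 11.8 ± 1.55 and Plau at 10.8 ± 2.59 CPM per kilobase (SD, n = 5), and their control libraries overlapped each other. Procr, at 5.14 ± 0.514, and Serpine2, at 4.98 ± 0.476 CPM per kilobase (SD, n = 5), also could not be ordered. Plat, at 3.07 ± 0.213, and Thbd, at 1.51 ± 0.214 CPM per kilobase (SD, n = 5), each lay below the gene before it in every library. F8, at 0.252 ± 0.0465, and Vwf, at 0.0924 ± 0.0161 CPM per kilobase (SD, n = 5), were the lowest. Vwf, the textbook endothelial product, was lower per kilobase than each of the 20 endothelial markers, which ran from 0.24 to 12.6 CPM per kilobase with a median of 2.34. The kilobases are those of all annotated exons merged, 16.1 for Vwf, so a gene with many alternative exons reads low on this scale. In KO cultures the order was the same, apart from Serpine2 and Procr, which exchanged places and again overlapped.

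**Figure D2:**
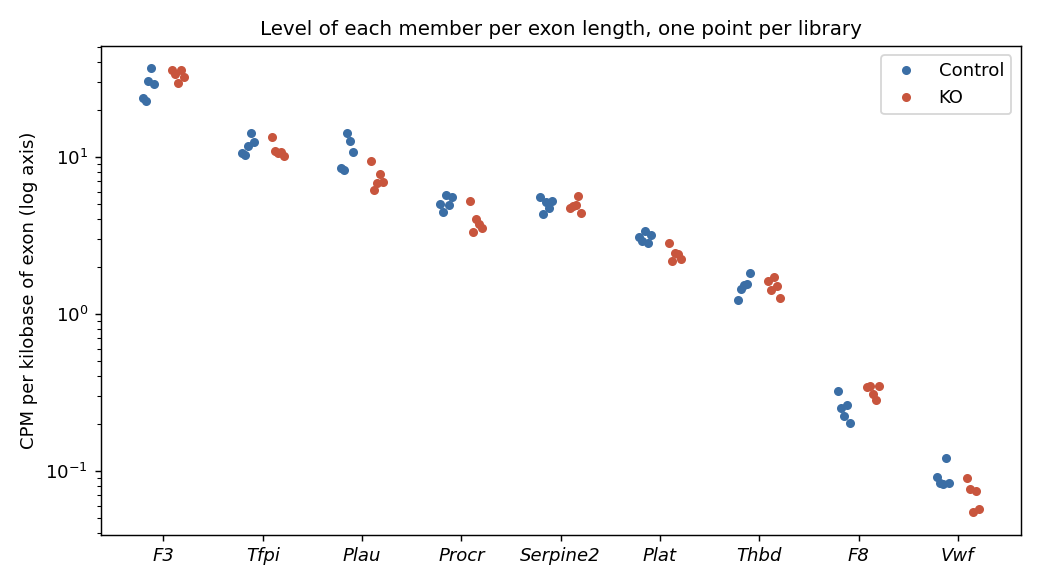
Level of each gene per exon length (CPM per kilobase of merged exons, log axis) in control (blue) and KO (red) libraries, one point per library. Levels span from below 0.1 for Vwf to above 20 for F3, and the ranking is nearly the same in both groups.

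Among the genes that promote clotting, Vwf was scarce, and its libraries, like those of each gene described here, are given in the order of their replicate numbers. It stood at 1.47, 1.35, 1.32, 1.93 and 1.35 CPM in the 5 control libraries and at 1.44, 1.23, 0.873, 1.19 and 0.916 CPM in the 5 KO libraries. Control library 4 was the highest, 4 of the 5 KO libraries lay below each control library, and KO library 1 overlapped the control range. KO stood -0.39 from control on the log2 scale (SE 0.182, 95% interval -0.78 to 0.01, adjusted P = 0.434). Vwf rested on 18 to 40 counts per library, and counting error alone gives a coefficient of variation of 17.6% in control, where the observed one was 17.4%. The endothelial median of -1.22 lies outside the interval, whereas a smaller decrease was not resolved at this depth. The endothelial markers Tek (-0.19), Flt1 (-0.48) and Eng (-0.51) lie inside the interval, and the other endothelial markers lie below it. Vwf (ENSMUSG00000001930.18) spans 125546774 to 125686679 of chromosome 6 in GRCm38, plus strand.

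F8, the cofactor that VWF protects in plasma, pointed the other way. It stood at 3.20, 2.47, 2.21, 2.61 and 1.99 CPM in the 5 control libraries and at 3.37, 3.42, 3.06, 2.79 and 3.46 CPM in the 5 KO libraries. Each KO library lay above control libraries 2 to 5, and control library 1 overlapped the KO range. Its log2 fold change of 0.37 (SE 0.136, 95% interval 0.08 to 0.67) did not pass over all genes (adjusted P = 0.257). With 47 to 78 counts per library, F8 (ENSMUSG00000031196.14, chromosome X, 75172715 to 75382615, minus strand) is also a low gene. Its span includes Fundc2 on the opposite strand and the pseudogenes Gm6039 and Gm8522, none of which shares an annotated exon with it.

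F3, which starts the cascade, was one of the better measured members, with 1144 to 1970 counts per library. It stood at 59.99, 57.1, 77.1, 92.7 and 73.8 CPM in the 5 control libraries and at 90.6, 85.0, 74.2, 90.2 and 81.5 CPM in the 5 KO libraries. The control libraries spread widely and control library 4 was above all KO libraries, so the groups overlapped. Mean F3 was higher in KO by 0.22 on the log2 scale (SE 0.114, 95% interval -0.02 to 0.47, adjusted P = 0.481). Without control library 4 and KO library 1 it was 0.31 (adjusted P = 0.112). F3 (ENSMUSG00000028128.14) spans 121723537 to 121735048 on the plus strand of chromosome 3.

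Of the 9 genes, 5 have promoter sequences in the RefSeq-based table of GRCm38.p6 used here, covering 250 bases before and 50 after an annotated start. Those of F3 and Procr are shown as the initiator of clotting and a receptor that restrains it, 2 surface proteins. Their fold changes had opposite signs, and neither passed over all genes. Capitals mark matches to the AP-1 motif TGANTCA, which reads the same on both strands. Other short motifs were searched as well and are not marked. The motif was found in 7.81% of the 32817 promoters of the same length. Both windows are on the plus strand, chr3:121723287-121723586 for F3 and chr2:155750967-155751266 for Procr.
F3: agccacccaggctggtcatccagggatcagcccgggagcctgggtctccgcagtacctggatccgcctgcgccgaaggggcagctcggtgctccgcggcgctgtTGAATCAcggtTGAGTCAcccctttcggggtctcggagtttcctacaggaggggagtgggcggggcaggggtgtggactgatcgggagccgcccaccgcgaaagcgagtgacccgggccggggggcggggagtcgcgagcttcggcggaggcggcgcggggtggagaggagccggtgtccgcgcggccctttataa
Procr: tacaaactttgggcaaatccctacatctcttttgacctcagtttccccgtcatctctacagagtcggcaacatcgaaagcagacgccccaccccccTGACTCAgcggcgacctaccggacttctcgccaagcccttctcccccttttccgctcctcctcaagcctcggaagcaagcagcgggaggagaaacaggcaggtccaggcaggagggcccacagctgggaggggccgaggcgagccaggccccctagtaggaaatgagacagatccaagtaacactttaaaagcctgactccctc
The F3 window holds 2 matches, which begin at positions -146 and -135 from the annotated start, and the Procr window holds 1, at -154. The windows of Tfpi, F8 and Serpine2 hold 0. G and C make up 70.3% of the F3 window and 58.3% of the Procr window, against a median of 52.7% for all promoters. These are matches of letters in a short window and were not related to the measured levels.

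Among the genes that restrain clotting, Procr was the lower in KO and the others were close to level. Procr, the receptor that presents protein C to thrombomodulin, stood at 10.1, 9.07, 11.7, 10.0 and 11.3 CPM in the 5 control libraries and at 10.7, 6.72, 8.12, 7.56 and 7.13 CPM in the 5 KO libraries. KO libraries 2 to 5 lay below each control library, and KO library 1 lay inside the control range. Its log2 fold change of -0.38 (SE 0.121, 95% interval -0.64 to -0.11) did not pass over all genes (adjusted P = 0.181). KO library 1 decided that call, since without it the log2 fold change was -0.49 and the adjusted P was 0.0180. Procr (ENSMUSG00000027611.13) spans 155751117 to 155755471 on the plus strand of chromosome 2.

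Thbd, the thrombin receptor that works with PROCR, stood at 4.56, 5.32, 5.64, 5.75 and 6.76 CPM in the 5 control libraries and at 6.00, 5.27, 6.37, 5.63 and 4.68 CPM in the 5 KO libraries. All KO libraries lay inside the control range. A log2 fold change of -0.0059 (SE 0.117, 95% interval -0.26 to 0.25, adjusted P = 0.997) had a sign that turned in 4 of 10 fits with a library removed. Thbd (ENSMUSG00000074743.5) has 1 exon, at 148404466 to 148408188 on the minus strand of chromosome 2.

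Tfpi, the inhibitor of the tissue factor complex, stood at 57.6, 56.1, 63.6, 77.0 and 68.4 CPM in the 5 control libraries and at 72.5, 59.8, 58.0, 58.3 and 55.6 CPM in the 5 KO libraries. Control library 4 and KO library 1 were the highest of their groups, and the ranges overlapped. KO differed from control by a log2 fold change of -0.085 (SE 0.0919, 95% interval -0.28 to 0.11, adjusted P = 0.820). Tfpi (ENSMUSG00000027082.16) spans 84432855 to 84476775 on the minus strand of chromosome 2.

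Both plasminogen activators were lower in KO on average. Plat stood at 19.3, 18.0, 20.9, 17.7 and 19.9 CPM in the 5 control libraries and at 17.7, 13.6, 15.2, 14.9 and 13.9 CPM in the 5 KO libraries. No KO library reached the control range, although control library 4 and KO library 1 were nearly equal. A separation in that direction was seen in 2.66% of all genes tested. Plat averaged 19.2 ± 1.33 CPM in control and 15.05 ± 1.61 CPM for the KO genotype (SD, n = 5). It fell by 0.35 on the log2 scale (SE 0.0781, 95% interval of the log2 fold change -0.52 to -0.18, adjusted P = 0.0365), a fitted ratio of 0.785. The exact permutation test over all 252 assignments of the libraries, 2-sided, gave P = 0.00794, the smallest value it can give for 5 against 5. Plat was not alone under 0.05, since the same exact permutation test gave P = 0.0238 for F8 and P = 0.0317 for each of Vwf, Procr and Plau. For F3, Tfpi, Serpine2 and Thbd the exact permutation test gave P = 0.135, 0.452, 0.794 and 0.984. These exact permutation values were not adjusted for the number of genes.

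The call of Plat lay near the limit. It held without control library 4 (adjusted P = 0.0263), without KO library 1 (0.00796) and without both (0.00379). It was lost when control library 1, 2, 3 or 5 or KO library 2, 3, 4 or 5 was left out, with adjusted P values from 0.0530 to 0.119, while the log2 fold change stayed between -0.41 and -0.31 in all 10 fits. With DESeq2's Wald test the adjusted P was 0.00455. Plat (ENSMUSG00000031538.7) spans 22757727 to 22782844 on the plus strand of chromosome 8 and overlaps no other annotated gene.

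Plau, the urokinase gene, stood at 20.03, 19.5, 33.5, 30.0 and 25.3 CPM in the 5 control libraries and at 22.3, 14.5, 16.0, 18.5 and 16.3 CPM in the 5 KO libraries. The control libraries differed from each other up to 33.5 CPM, with a coefficient of variation of 23.9%, and KO library 1 lay above control libraries 1 and 2. Its log2 fold change of -0.55 (SE 0.157, 95% interval -0.89 to -0.21) was the most negative of the 9 genes and did not pass over all genes (adjusted P = 0.116). With DESeq2's Wald test the adjusted P was 0.0242, where 2.52% of all genes were called lower. Plau (ENSMUSG00000021822.4) spans 20836660 to 20843385 on the plus strand of chromosome 14.

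Serpine2, the inhibitor of thrombin and urokinase, stood at 45.7, 35.6, 42.6, 39.1 and 43.3 CPM in the 5 control libraries and at 38.9, 40.1, 41.0, 46.7 and 36.3 CPM in the 5 KO libraries. The groups covered nearly the same range. Serpine2 had the narrowest interval of the 9 genes, from -0.19 to 0.15 around a log2 fold change of -0.021 (SE 0.0772, adjusted P = 0.963). Serpine2 (ENSMUSG00000026249.11) spans 79794197 to 79861180 on the minus strand of chromosome 1.

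**Figure D3:**
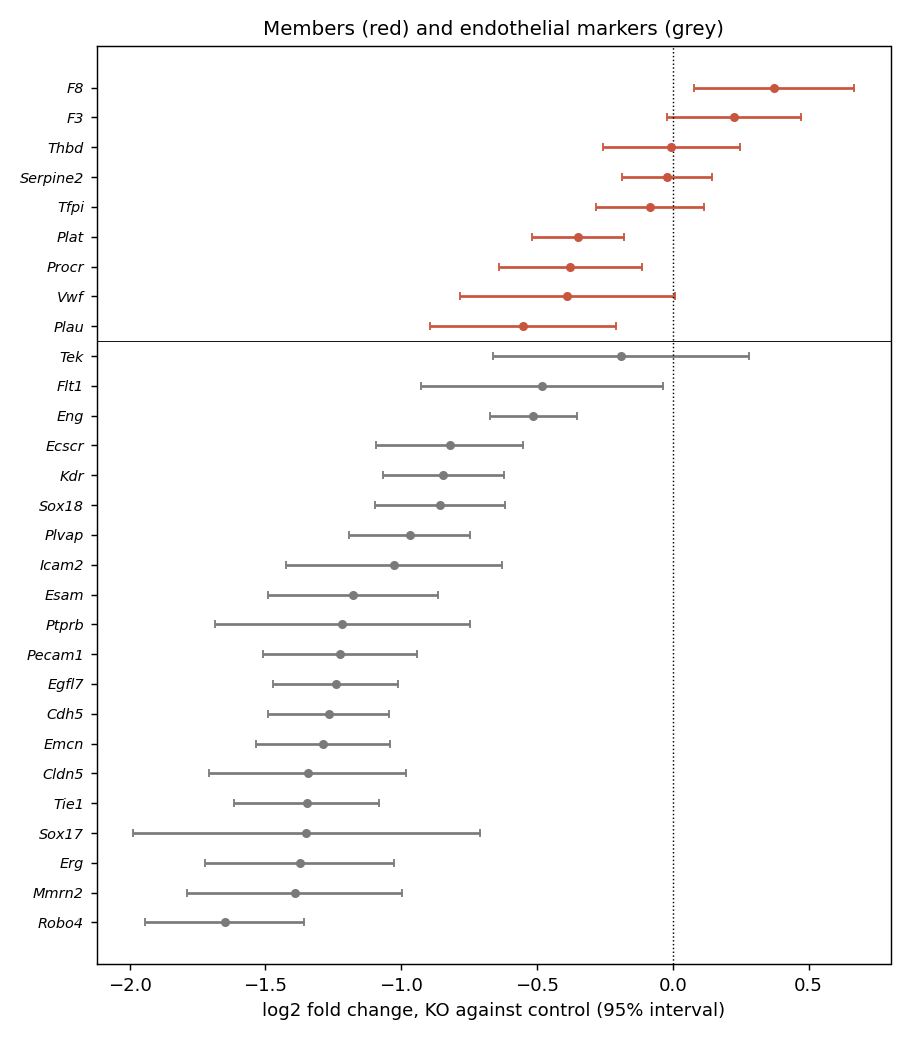
Log2 fold change of KO against control with its 95% interval for the 9 genes (red, top) and the 20 endothelial markers (grey, bottom). The members lie between -0.55 and 0.37, while the median of the endothelial markers is -1.22.

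Because the endothelial markers moved with genotype, each member was also set against them within each library, as its log2 CPM minus the mean log2 CPM of the 20 markers. That marker mean, on the log2 CPM scale, was 3.19 ± 0.114 for control and 2.13 ± 0.162 for KO (SD, n = 5), so that KO minus control was -1.06. On this relative scale all 9 members were higher in KO, and for 8 of them the groups were separate, as for 88.6% of all 14270 genes tested. The difference was 1.43 for F8, 1.31 for F3, 1.06 for Thbd, 1.04 for Serpine2 and 0.98 for Tfpi. It was smaller for Plat at 0.71, Vwf at 0.69, Procr at 0.68 and Plau at 0.53. For Vwf the lowest KO library met the highest control library, at -2.24 in both. No test was made, since the fall of the markers fixes the sign for any gene near level, and a positive difference says only that the gene did not fall as far as the markers.

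**Figure D4:**
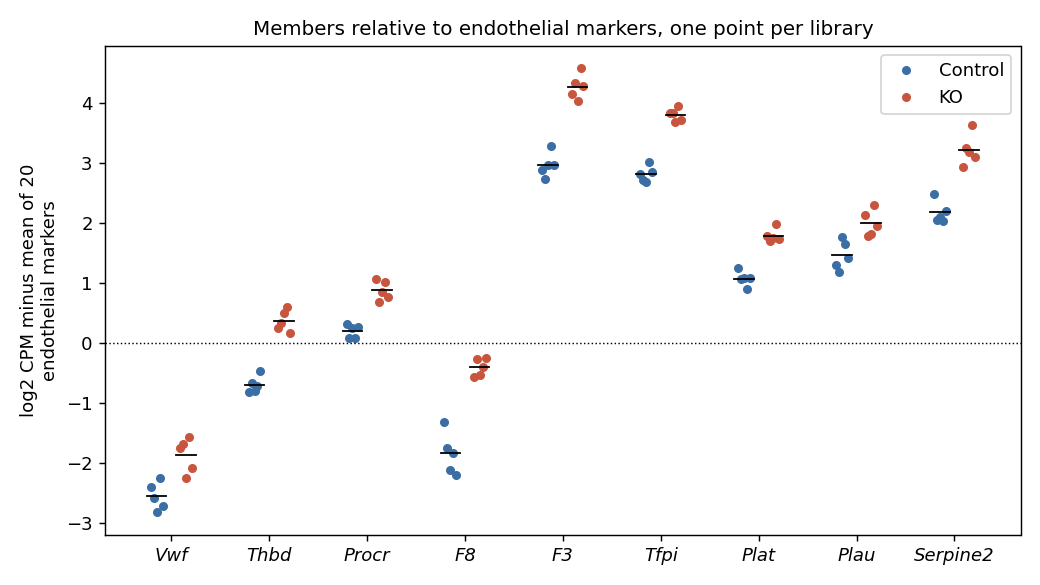
Log2 CPM of each gene minus the mean log2 CPM of 20 endothelial markers in the same library, for control (blue) and KO (red) libraries, with black lines for means. All 9 means are higher in KO, and the Vwf libraries of the groups touch.

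Markers of some other cell types also moved with genotype. Of 10 progenitor and fibroblast markers, 4 were lower and 0 higher in KO, their median log2 fold change was -0.35, and their summed level ran from 5102 to 6575 CPM in control and from 4284 to 5084 CPM in KO libraries. The summed level of 12 adipocyte markers ran from 31688 to 32550 CPM in control and from 33372 to 35395 CPM in KO libraries. Of the 12, 0 passed, but 10 had positive log2 fold changes, and the median was 0.083. At an unadjusted P under 0.05, 5 of the 12 were higher and 0 lower, against 4.43% and 7.46% of all genes. Fabp4 was the largest part of that sum, at 20805 CPM in control and 22552 CPM in KO (adjusted P = 0.386). Of the 8 pericyte and smooth muscle markers that could be tested, 0 passed, but all 8 had negative log2 fold changes with a median of -0.38. At an unadjusted P under 0.05, 5 of them were lower, against 7.46% of all genes. Their summed level ran from 183.2 to 240.8 CPM in control and from 146.6 to 199.2 CPM in KO libraries. Kcnj8 and Abcc9, named after their values were seen, did not overlap between the groups, as for 2.66% of all genes in that direction. The median of 10 macrophage markers was -0.031, 0 of them passed at an adjusted or unadjusted P under 0.05, and their sums overlapped. Of 5 lymphatic endothelial markers 1 was lower (Flt4), and the sums of those and of 5 mesothelial markers overlapped. Of 10 platelet markers, 7 stayed under 10 counts in each library, and among them Gp9, Ppbp, Gp6 and Gp1bb had 0 counts in all libraries. Treml1 had 1 to 14 counts per library and was not tested. Pf4, with 121 to 221 counts per library, and Itga2b, with 82 to 170, were detected. Neither passed (adjusted P = 0.837 for Pf4 and 0.361 for Itga2b). The part of these cell types in the values of Plat, Plau and Procr was not tested.

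The other genes of the pathway were read from 60 further genes in 7 lists, of which 39 were expressed enough to test. Of these, 1 was higher (Fga) and 1 was lower (Stab2) in KO, and their median log2 fold change was -0.0055. The shares of all genes that passed were 0.308% higher and 1.86% lower. At an unadjusted P under 0.05, 7 of the 39 were lower and 4 higher, against 7.46% and 4.43% of all genes. Of 15 coagulation factors and cofactors, 6 were expressed enough to test, which were F5, F7, F13a1, Fga, Kng1 and Kng2. F2 (prothrombin), F11, F13b and Fgb had 0 counts in all 10 libraries. A count of 0 in 1 library taken alone allows up to 3 by counting error, and 0 in all 10 is a stricter bound. Plg, which encodes the plasminogen that both activators turn into plasmin, had at most 1 count. F10 had 1 to 11 counts per library and was not tested.

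Fga, which encodes the fibrinogen alpha chain, was higher in KO. It stood at 5.03, 5.40, 4.47, 4.93 and 3.72 CPM in the 5 control libraries and at 7.74, 7.03, 8.29, 9.39 and 6.21 CPM in the 5 KO libraries. Each KO library lay above each control library, as in 1.31% of all genes tested. The log2 fold change was 0.72 (SE 0.128, adjusted P = 0.00995), and it passed with any 1 of the 10 libraries removed. Its partners in the fibrinogen cluster of chromosome 3 were not expressed with it, as Fgb had 0 counts and Fgg had at most 2.

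Stab2, a scavenger receptor of endothelial cells that clears VWF and factor VIII, fell in KO. It stood at 2.31, 2.02, 1.88, 2.85 and 1.61 CPM in the 5 control libraries and at 1.34, 1.19, 0.611, 0.870 and 1.27 CPM in the 5 KO libraries. The groups did not overlap, as for 2.66% of all genes tested in that direction. The log2 fold change was -1.01 (SE 0.223, adjusted P = 0.0325), on 14 to 59 counts per library. It passed without control library 4 or 5 or KO library 1, and was lost with control library 1, 2 or 3 or KO library 2, 3, 4 or 5 left out, at adjusted P values from 0.0566 to 0.0927. Stab2 overlaps Gm16268 on the opposite strand, so its counts can include fragments of that gene.

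The inhibitors and receptors of fibrinolysis gave no called change. Plaur, the urokinase receptor, averaged 7.07 ± 0.882 CPM in control and 5.61 ± 0.726 CPM in KO (SD, n = 5) and did not pass (log2 fold change -0.33, SE 0.113, adjusted P = 0.208). Serpinb2, a urokinase inhibitor, had 3 to 40 counts per library and a log2 fold change of 0.39 (SE 0.553, adjusted P = 0.880). In this list 8 of 11 genes were tested and 0 passed.

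The remaining lists held few differences. Of 11 genes in the list of anticoagulants and their receptors, 5 were tested and 0 passed. Among them, Pros1, the cofactor of protein C, had a log2 fold change of -0.20 (adjusted P = 0.474). Gas6, which is in that list and is not itself an anticoagulant, had -0.16 (adjusted P = 0.628). Gas6 shares exon sequence with Tmem255b on the opposite strand. The thrombin receptor F2r averaged 28.9 ± 6.48 CPM in control and 28.2 ± 3.05 CPM in KO (SD, n = 5), F2rl1, the protease-activated receptor responsive to factor VIIa, had 8 to 29 counts per library, and neither passed. Of 9 genes for processing, secretion and clearance of VWF and factors V and VIII, 8 were tested, 1 was lower (Stab2) and 0 were higher. Their median log2 fold change was -0.02. None of the 3 vitamin K cycle genes or the 7 genes of prostanoid and nucleotide control of platelets passed. Among the 6 tested coagulation factors, F7 averaged 3.81 ± 0.613 CPM in control and 3.29 ± 0.514 CPM in KO (SD, n = 5), and it did not pass (adjusted P = 0.630).

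**Figure D5:**
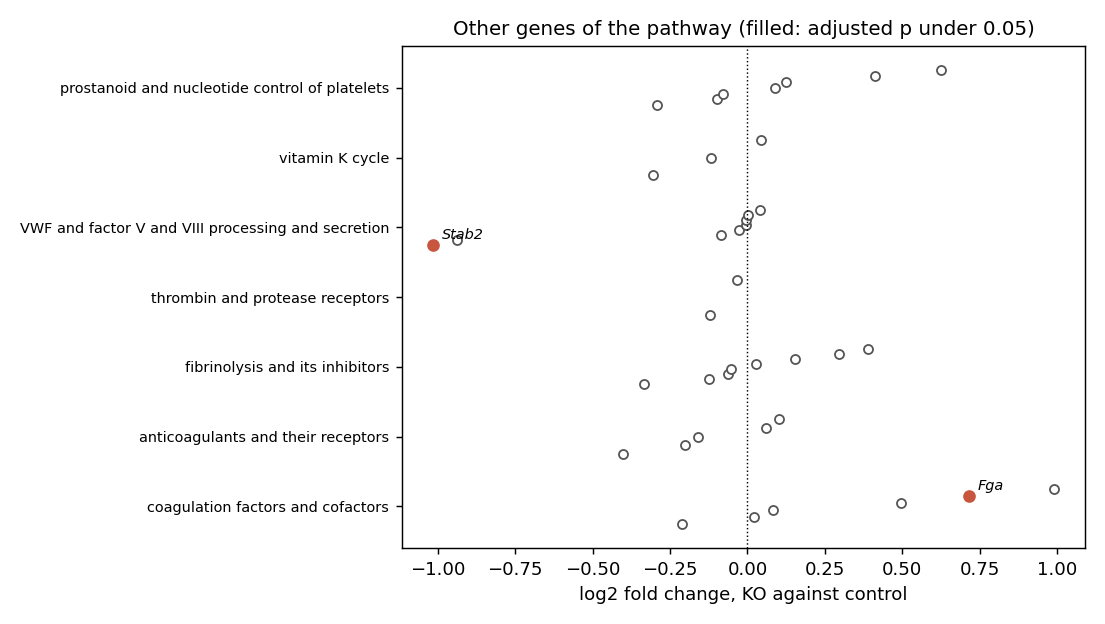
Log2 fold change of KO against control for the 39 tested genes of 7 further lists of the pathway. Filled points passed an adjusted P of 0.05, which were Fga (0.72) and Stab2 (-1.01), and open points did not.

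The gene whose log2 CPM followed each member most closely was found among all other genes tested by Pearson's r over the 10 libraries, as a description that also carries the difference between groups. It was Kalrn for Vwf (r = 0.95), Chchd1 for Thbd (0.90) and Hpgds for Procr (0.95). It was Dnajc28 for F8 (0.94), Tes for F3 (0.98) and Serpinb6a for Tfpi (0.98). For Plat it was Pea15a (0.97), for Plau Hvcn1 (0.96) and for Serpine2 the predicted gene Gm14410 (0.91). Of these genes, Pea15a passed the limit (log2 fold change -0.26, adjusted P = 0.0392). High values of r are common when the best of 14270 genes is taken over so few libraries.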

How the data were processed

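Primary adipocyte cultures from 5 control and 5 KO samples were profiled by RNA-seq. Per the study's methods, cDNA was made with a SMARTer v4 kit and tagmented with Nextera XT, and the authors mapped reads with STAR 2.6.0c to GRCm38.p6 (mm10 in the labels), and counted fragments with featureCounts 1.6.2. The deposited values are raw counts per gene, unnormalized and not pooled, and the strand setting is not given in the sources used here. 0 columns belonged to other samples.

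These counts were filtered with filterByExpr (minimum count 10, which left 14270 genes) and scaled by TMM factors in edgeR 4.0.16 under R 4.3.3. The quasi-likelihood test of edgeR compared the groups, P values were adjusted by Benjamini-Hochberg over all 14270 genes, and the limit was 0.05. Unless another tool is named, adjusted P values are from that test. Log2 CPM used a prior count of 2. SE was derived from the log2 fold change and the F statistic. Group members were found by symbol. Alternatives used DESeq2 1.42.0, limma 3.58.1 (voom), other size factors and filters, a replicate block, and each library left out. Positions and exon lengths are those of GENCODE M21 (GRCm38), which holds 52125 of the 56748 genes. Identifiers are printed as in the count table. Scripts were tested on simulated data.

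The members and lists were chosen with earlier results of these data known. Genes named are the 9 members, Fam20c, listed pathway genes that passed or were fixed by name, reference cell markers, and the most similar gene to each member. Others named were chosen after their values were seen. Precision is limited by counts, since low genes such as Vwf rest on few, and counting intervals cover counting error only. Some listed items are not reported here.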

Additional observations from a re-analysis of the deposited data

Results flagged for a closer look

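In each group of 5 libraries, the gap of the highest or lowest library to its neighbour was divided by the whole range (Dixon's ratio), for 44 groups of named genes. 3 groups were above 0.71, a value that chance passes in about 1 of 20 groups. For Vwf, control library 4 reached 1.93 CPM while the rest of its group ran from 1.32 to 1.47 (ratio 0.754). For Tfpi, KO library 1 reached 72.5 CPM, and the rest ran from 55.6 to 59.8 (ratio 0.755). For F7, KO library 5 reached 4.17 CPM, and the rest ran from 2.88 to 3.25 (ratio 0.7104).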

How the results depend on the processing

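TMM was replaced by RLE or upper quartile factors, filterByExpr by no filter or by 1 CPM in 5 libraries, and edgeR by DESeq2 or limma voom with quality weights. Under these, the 9 members kept their direction, and Plat kept its call. Plau passed with DESeq2 (-0.55, adjusted P = 0.0242) and without a filter (-0.55, adjusted P = 0.0303), with adjusted P values from 0.0242 to 0.285 over its alternatives. The replicate number as a block is not a pairing known from the labels: same-numbered libraries deviated together with r from -0.25 to 0.26, above 0.1 in 1 of 5 pairs. With that block 0 members passed, Plat at -0.35 (adjusted P = 0.0600), while the numbers of genes called were 193 lower and 21 higher, and 0 listed pathway genes were lower. F2r turned to 0.083 with voom.

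Without control library 4 and KO library 1, an alternative chosen after the data were seen, 353 genes were lower and 145 higher, Plat was at -0.44, Procr passed at -0.51 (adjusted P = 0.0160), F2r turned to 0.055, and 2 listed pathway genes were lower and 6 higher. With all libraries edgeR called 265 lower and 44 higher genes, DESeq2 called 359 and 125, and voom 111 higher. Listed pathway genes that passed were 2 lower and 3 higher with DESeq2, 3 and 3 with voom, and 3 higher with no filter.

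With each library left out in turn, 164 to 323 genes were lower (164 without KO library 2 and 171 without KO library 5) and 19 to 119 higher, within 1.5 times of 44 only without control library 2 or KO library 1, and 0 to 2 listed pathway genes were lower and 1 to 4 higher. The log2 fold change ran from -0.48 to -0.28 for Vwf, from -0.068 to 0.072 for Thbd, from -0.49 to -0.31 for Procr, from -0.41 to -0.31 for Plat, from -0.65 to -0.43 for Plau and from -0.076 to 0.018 for Serpine2. Tek ran from -0.30 to 0.047, F2r from -0.12 to 0.097, F2rl1 from -0.40 to 0.083 and Stab2 from -1.11 to -0.86. With 6 core endothelial markers in place of 20, the relative differences ran from 0.56 for Plau to 1.46 for F8. The causes were not tested. Vwf, F8, Serpinb2 and Stab2 rest on few counts, and smaller changes in them were not detectable at this depth.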

Other observations

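Kng1 and Kng2, which encode kininogens that take part in contact activation, had, with Fga, the 3 highest log2 fold changes of the coagulation factor list, and were named after their values were seen. Kng1 averaged 1.27 ± 0.528 CPM in control against 2.49 ± 0.476 CPM in KO (SD, n = 5) and did not pass (log2 fold change 0.99, adjusted P = 0.0809). Kng2 averaged 8.25 ± 2.02 against 11.6 ± 0.957 CPM (SD, n = 5) and did not pass either (log2 fold change 0.50, adjusted P = 0.111). They are paralogs, and counts could be split between them. Both lie on chromosome 16, from 23057865 to 23082078 and from 22985854 to 23029482. Only the KO genotype carries the Cre transgene with the adiponectin promoter, and a part of that transgene in these values was not tested. Selp, the gene of P-selectin, which shares the Weibel-Palade bodies with VWF, averaged 1.05 ± 0.286 against 0.541 ± 0.204 CPM (SD, n = 5), without passing (log2 fold change -0.94, adjusted P = 0.126), on 7 to 34 counts per library.

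Control library 4 and KO library 1, which stood apart on the leading principal component, were also the highest of their groups for Ptgs2, the inducible cyclooxygenase, at 8.95 and 7.79 CPM. The other libraries had 0.470 to 1.18 CPM of Ptgs2 in control and 1.42 to 3.12 CPM in KO. The same pair was highest for Nt5e, the ecto-enzyme that makes adenosine, at 29.9 and 43.8 CPM, and for Tek, at 9.04 and 5.95 CPM.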
